A study of Mus musculus with 36 samples.

Results

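The genes described here are 9 that mark microglia, the resident macrophages of the brain, in their resting or homeostatic state: P2ry12, P2ry13, Tmem119, Cx3cr1, Sall1, Csf1r, Gpr34, Siglech and Fcrls. They were chosen by name, with earlier results of these data known, and matched by symbol to the mouse Ensembl identifiers of the count table. Each of the 9 matched 1 row of the 56980 genes in the table, and each passed the low-count filter that left 25601 genes for testing.

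The samples were polyA RNA from the brains of 36 mice that were 37 to 45 days old and were either wild type (WT) or knockout (KO) for Ndufs4, which encodes an accessory subunit of mitochondrial complex I. For 3 consecutive days the mice were gavaged with vehicle or with CP2, which inhibits mitochondrial complex I. Cortex and hippocampus were collected, according to the design text. The titles carry a letter, F or M, and a number such as L201 by which single libraries are named here. Genotype, treatment and letter gave 8 groups of 5 samples, except that KO vehicle M and WT vehicle M held 3 each. The dose of CP2, the vehicle and the tissues in which Ndufs4 was deleted are not given in the sources used here. The labels do not say whether the mice of a group came from separate litters, so the p-values measure the spread between these samples.

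Microglia depend on signals from the tissue around them. The receptor Csf1r binds Csf1 and Il34 and is needed for microglial survival, Cx3cr1 binds the neuronal chemokine Cx3cl1, and TGF-beta signalling keeps up the homeostatic program together with transcription factors such as Spi1 (PU.1) and Sall1. P2ry12 and P2ry13 are G protein-coupled receptors for adenine nucleotides, and P2ry12 directs microglial processes to sites of injury. Homeostatic genes are known to fall, and genes such as Clec7a, Trem2 and Itgax to rise, when microglia take on a disease-associated state.

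The promoters of 4 members are shown because PU.1, a factor of the ETS family, is a central regulator of microglia and 2 short ETS-type cores were searched in them. Each sequence is the 250 bases before the start site on the gene's strand, from RefSeq on GRCm38.p6, a build other than the GRCm39 that the submitters' processing notes name. Capitals mark the cores GAGGAA and GGAAGT on either strand, so that TTCCTC and ACTTCC are the same cores read from the other strand. The 2 cores share the letters GGAA and can overlap.
P2ry12, chr3:59262986-59263235, minus strand: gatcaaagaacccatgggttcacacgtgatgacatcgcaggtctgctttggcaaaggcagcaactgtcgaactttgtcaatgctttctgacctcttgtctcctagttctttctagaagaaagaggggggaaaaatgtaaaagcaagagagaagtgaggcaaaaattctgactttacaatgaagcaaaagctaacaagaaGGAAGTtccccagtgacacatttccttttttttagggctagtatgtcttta
P2ry13, chr3:59210883-59211132, minus strand: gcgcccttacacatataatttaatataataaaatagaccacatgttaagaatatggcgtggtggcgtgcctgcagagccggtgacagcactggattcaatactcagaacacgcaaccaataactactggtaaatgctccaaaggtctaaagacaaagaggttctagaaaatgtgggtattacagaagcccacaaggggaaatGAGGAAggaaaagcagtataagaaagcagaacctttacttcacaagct
Siglech, chr7:55767934-55768183, plus strand: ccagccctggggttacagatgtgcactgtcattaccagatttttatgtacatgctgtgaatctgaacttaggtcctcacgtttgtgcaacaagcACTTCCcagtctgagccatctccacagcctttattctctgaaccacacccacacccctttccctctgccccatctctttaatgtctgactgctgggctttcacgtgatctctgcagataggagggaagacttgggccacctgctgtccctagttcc
Fcrls, chr3:87263525-87263774, minus strand: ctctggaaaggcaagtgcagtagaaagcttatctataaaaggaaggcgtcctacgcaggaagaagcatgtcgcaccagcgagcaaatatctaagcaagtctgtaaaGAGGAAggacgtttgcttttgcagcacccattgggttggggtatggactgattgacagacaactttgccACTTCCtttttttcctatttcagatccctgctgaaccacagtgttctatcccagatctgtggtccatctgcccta

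P2ry12 had GGAAGT with its first base 51 bases before the start, and P2ry13 had GAGGAA 48 bases before it. Fcrls held both cores, at 144 bases on the forward strand and at 75 bases on the reverse strand, and Siglech held GGAAGT at 156 bases on the reverse strand. Of 32851 mouse promoters of this length, 23.25% held GAGGAA, 19.74% held GGAAGT and 36.74% held either. Of the other members with an entry, Cx3cr1 held neither core and Sall1 held GGAAGT in 1 of its 3 entries. A match is a description of the letters and not evidence of a bound site. RefSeq entries were matched for 6 of the 9 members.

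The 36 libraries held 46124548 to 88559920 reads in genes, and the share of reads outside annotated genes ran from 5.09% to 13.2%. Ndufs4 averaged 28.2 to 35.6 CPM (read counts scaled to library size) in the 4 KO groups and 44.6 to 53.4 CPM in the 4 WT groups. The female-specific RNA Xist was at 439 to 798 CPM in the 20 F libraries. It was at most 0.833 CPM in 15 of the 16 M libraries, while the KO CP2 M library L291 had 47.3 CPM of Xist beside 80.8 CPM of the Y-linked Ddx3y. The KO CP2 M library L266 differed most from the others of its group. Results that these 2 libraries change are given without them.

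All 9 members were read deeply in these libraries, with at least 305 reads of the least abundant gene in the poorest library. Per kilobase of exon, Csf1r was highest at 17.5 ± 2.19 CPM per kilobase (SD, n = 36), followed by P2ry12 at 14.0 ± 2.53 and Cx3cr1 at 12.1 ± 1.57. Fcrls, an Fc receptor-like protein, was at 10.6 ± 2.67 CPM per kilobase and Tmem119, a microglial membrane protein, at 9.66 ± 1.57. Gpr34, a receptor for lysophosphatidylserine, was at 6.18 ± 1.39 CPM per kilobase and Sall1 at 5.39 ± 0.645. Siglech, a sialic acid-binding lectin, was at 4.65 ± 0.831 CPM per kilobase and P2ry13 at 4.1 ± 0.801. Tmem119 was above Gpr34 in 36 of 36 libraries. Fcrls was above Tmem119 in 24 of 36 and Gpr34 above Sall1 in 25 of 36, so these neighbours were not separated beyond their spread. Across single libraries, the highest CPM was 1.63 times the lowest for Sall1 and 3.83 times the lowest for Fcrls. Exons of P2ry12 overlap Med12l, those of Csf1r overlap Hmgxb3 and those of Cx3cr1 overlap Gm33858, each on the opposite strand. Whether reads were counted by strand is not given in the sources used here, so these 3 values may hold reads of the partner gene.

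**Figure D1:**
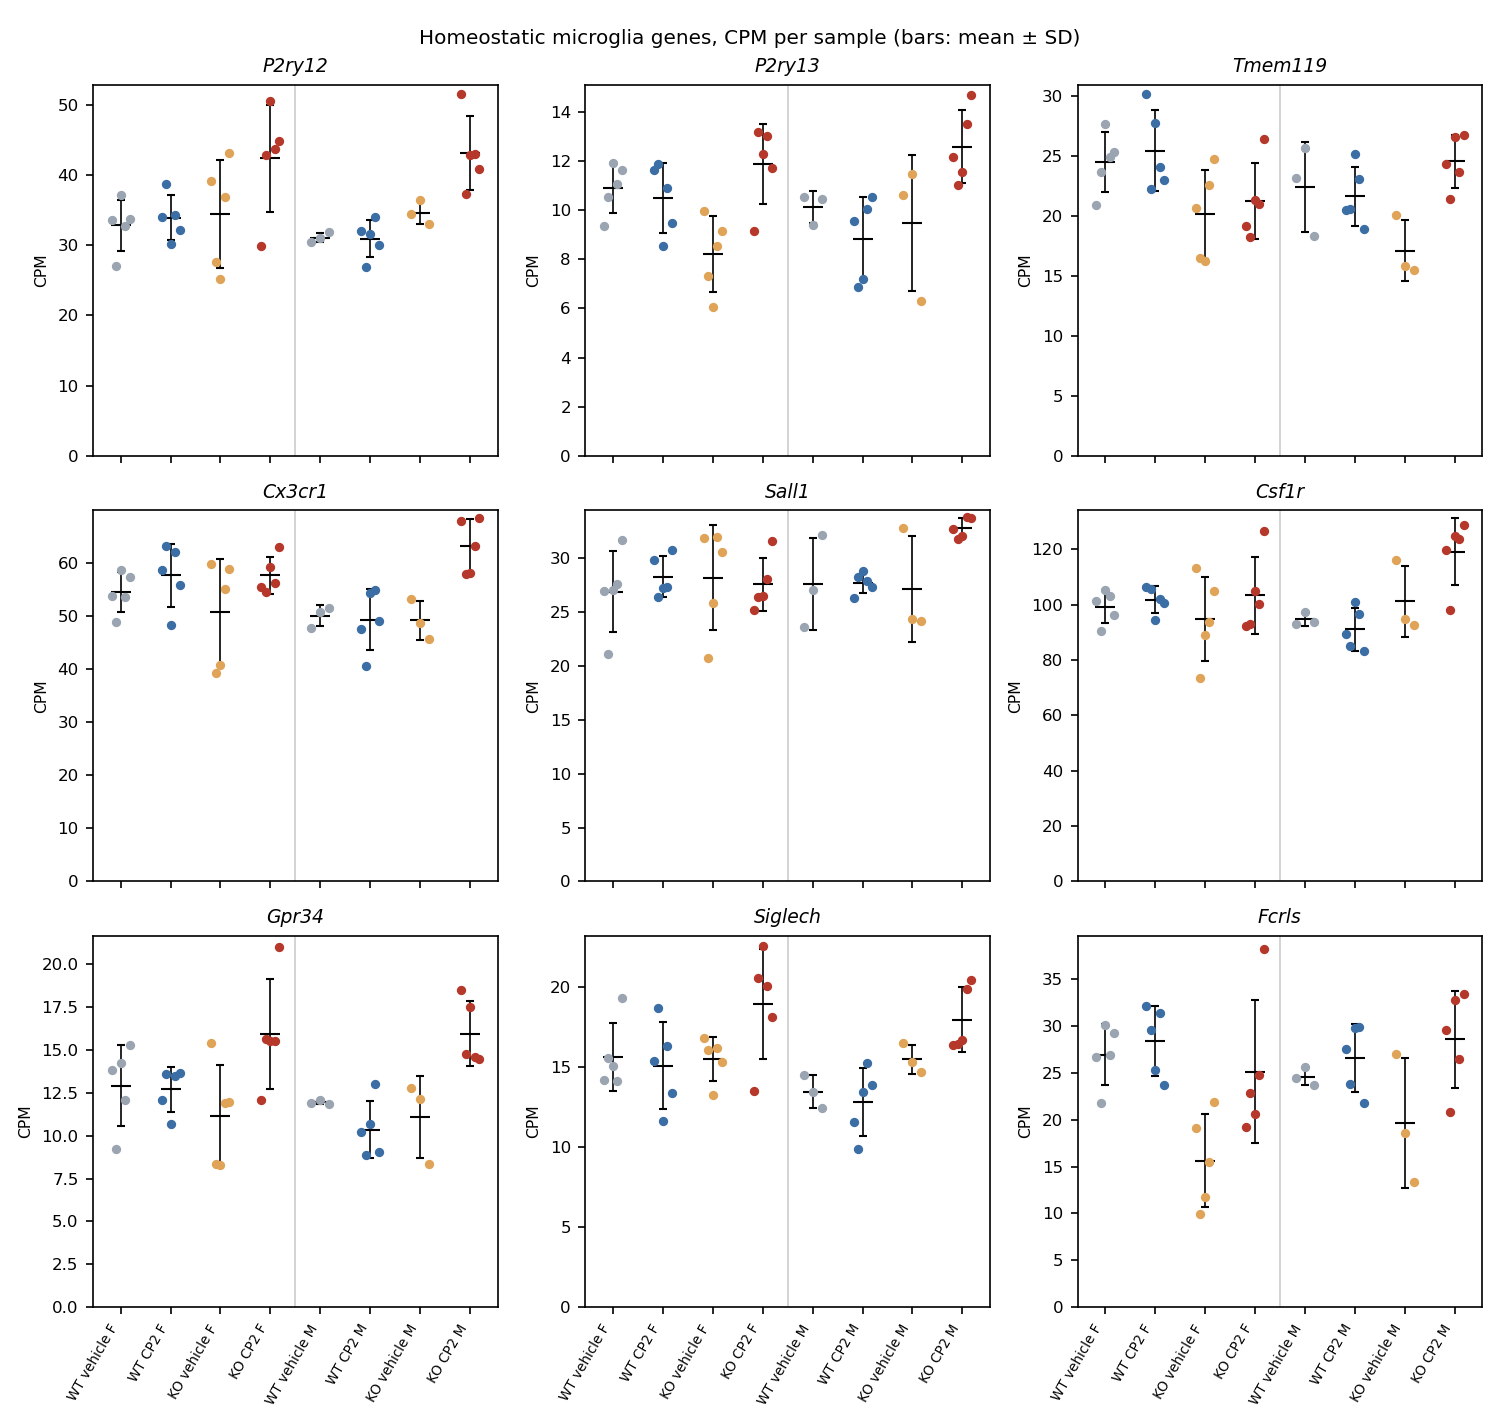
CPM of each of the 9 genes (vertical axes from 0) in every sample of the 8 groups, with F groups left and M groups right of the line. Points are samples and bars the mean ± SD, with n = 5 per group and n = 3 for WT vehicle M and KO vehicle M; P2ry12 and Gpr34 are highest on average in the KO CP2 groups, and Fcrls is lowest in KO vehicle F.

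In vehicle-treated mice, Tmem119 and Fcrls were lower in KO than in WT brain and the other 7 members did not pass the test. Fold changes were fitted with edgeR's quasi-likelihood test over all genes with the 8 groups as terms, and averaged over F and M with equal weight. A gene was called at a Benjamini-Hochberg adjusted p under 0.05. Of the 9 members, 2 were called lower and 0 higher, where 3.80% of all genes tested were called lower. In bulk RNA, fewer microglia and less RNA per microglial cell cannot be told apart.

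Fcrls was at 26.63, 21.75, 30.13, 26.93 and 29.2 CPM in WT vehicle F and at 19.12, 9.951, 11.73, 15.43 and 21.86 CPM in KO vehicle F. The groups touched at 1 KO library, L283, which lay just above the lowest WT library, L277. In M, Fcrls was at 24.46, 25.6 and 23.72 CPM in WT vehicle and at 27.01, 18.55 and 13.32 CPM in KO vehicle, so 1 KO library was above all 3 WT libraries. The averaged log2 fold change was -0.56 (SE 0.158, adjusted p = 0.0307 by edgeR). In F alone it was -0.79 (SE 0.195, adjusted p = 0.0173 by edgeR), 1 of 9 members called where 2.94% of genes were called lower.

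Tmem119 was at 20.85, 23.67, 27.67, 24.92 and 25.27 CPM in WT vehicle F and at 20.65, 16.5, 16.19, 22.53 and 24.69 CPM in KO vehicle F. In M it was at 23.13, 25.66 and 18.28 CPM in WT vehicle and at 20.03, 15.78 and 15.47 CPM in KO vehicle. The ranges overlapped in both letters, and the averaged log2 fold change was -0.34 (SE 0.096, adjusted p = 0.0278 by edgeR). Both calls rested on single libraries. The Fcrls call was lost without any 1 of KO vehicle F L281, KO vehicle M L319 or L322, and WT vehicle M L285 or L300, with adjusted p of up to 0.135 by edgeR. The Tmem119 call was lost without any of the same 5 libraries or WT vehicle F L278, with adjusted p of up to 0.122 by edgeR.

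Among the other members in vehicle, P2ry13 had a log2 fold change of -0.25 (SE 0.118, adjusted p = 0.202 by edgeR). The remaining 6 lay between -0.16 for Gpr34 and 0.11 for P2ry12. The median of the 9 was -0.06, beside 0.02 for all genes tested. In the 3 against 3 libraries of the M groups, P2ry12 and Siglech did not overlap and were higher in KO, with P2ry12 at 34.38, 36.38 and 33.08 CPM against 30.43, 31.02 and 31.82 CPM. Of all genes tested, 10.5% did not overlap and were higher in KO in this comparison. In it edgeR called 0.516% of genes and 0 of the 9 members, and DESeq2 called 0 members. An unadjusted edgeR p under 0.05 was found for 1 member and 3132 of 25601 genes.

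With CP2, P2ry12, P2ry13, Csf1r, Gpr34 and Siglech were higher in KO than in WT brain, and Tmem119, Fcrls, Sall1 and Cx3cr1 did not pass the test. That was 5 of 9 members called higher and 0 lower, where 5.54% of all genes were called higher. The median log2 fold change of the 9 was 0.20, beside 0.01 for all genes.

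P2ry12 in CP2-treated M was at 31.99, 26.93, 31.65, 33.96 and 30.04 CPM in WT and at 51.57, 37.36, 42.89, 42.96 and 40.85 CPM in KO. In F it was at 34.02, 38.77, 30.19, 34.32 and 32.14 CPM in WT and at 29.9, 42.8, 50.59, 43.71 and 44.78 CPM in KO. Every KO library was above every WT library in M, and 4 of 5 were in F, where L201 was below all WT libraries. The averaged log2 fold change was 0.40 (SE 0.083, adjusted p = 0.00106 by edgeR).

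Gpr34 in M was at 10.2, 8.895, 10.68, 13 and 9.043 CPM in WT and at 18.48, 14.78, 17.51, 14.58 and 14.46 CPM in KO. In F it was at 12.07, 13.61, 10.67, 13.47 and 13.68 CPM in WT and at 12.07, 15.66, 15.5, 15.54 and 21.01 CPM in KO. The groups were again apart in M, and in F the library L201 was again the lowest of the KO samples. The averaged log2 fold change was 0.48 (SE 0.107, adjusted p = 0.00219 by edgeR).

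Siglech in M was at 11.54, 9.884, 13.45, 15.26 and 13.87 CPM in WT and at 16.36, 16.39, 16.64, 19.84 and 20.43 CPM in KO. In F it was at 15.38, 18.64, 11.6, 16.3 and 13.36 CPM in WT and at 13.47, 20.52, 22.52, 20.03 and 18.12 CPM in KO. The M groups were apart and the F groups overlapped, with an averaged log2 fold change of 0.41 (SE 0.088, adjusted p = 0.00148 by edgeR). The calls of P2ry12, Gpr34 and Siglech were kept when any 1 of the 20 libraries was left out.

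P2ry13 in M was at 9.552, 6.893, 7.21, 10.05 and 10.52 CPM in WT and at 12.15, 11.04, 11.57, 13.52 and 14.69 CPM in KO, with no overlap. In F it was at 11.63, 11.87, 8.548, 10.89 and 9.49 CPM in WT and at 9.17, 13.18, 12.3, 13.03 and 11.7 CPM in KO, with overlap. Its averaged log2 fold change was 0.35 (SE 0.102, adjusted p = 0.0215 by edgeR), and the call was lost without WT CP2 M L262 (adjusted p = 0.0538 by edgeR).

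Csf1r in M was at 89.38, 85.14, 101.1, 96.82 and 83.14 CPM in WT and at 119.9, 98.27, 124.9, 123.8 and 128.9 CPM in KO, where only L291 fell inside the WT range. In F the ranges overlapped, at 94.32 to 106.3 CPM in WT and 92.46 to 126.6 CPM in KO. The averaged log2 fold change was 0.20 (SE 0.063, adjusted p = 0.0274 by edgeR). This call was lost without any 1 of KO CP2 F L234, WT CP2 F L257, KO CP2 M L299 and WT CP2 M L262 or L289, with adjusted p of up to 0.0735 by edgeR.

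Cx3cr1 had a log2 fold change of 0.18 (SE 0.067, adjusted p = 0.0745 by edgeR) and was called without WT CP2 M L267. Sall1 was at 0.10, Tmem119 at -0.04 and Fcrls at -0.04 on the same scale. In M alone, 6 of 9 members were called higher, where 4.75% of genes were: P2ry12 at 0.48, P2ry13 at 0.51, Cx3cr1 at 0.36, Csf1r at 0.39, Gpr34 at 0.62 and Siglech at 0.49. Without WT CP2 M L262 the count in M was 3. P2ry12, P2ry13, Cx3cr1, Sall1, Gpr34 and Siglech did not overlap between the M groups, where 4.76% of all genes did not overlap and were higher in KO. In F alone, 0 members were called by edgeR or DESeq2, where edgeR called 2.00% of genes. At an unadjusted edgeR p under 0.05 there were 4 of 9 members and 4030 of 25601 genes. Of these members P2ry12, Gpr34 and Siglech were higher in KO, while Tmem119 was lower, at -0.26 in F beside 0.18 in M. The F minus M difference was negative for 9 of 9 members, from -0.16 for Siglech to -0.44 for Tmem119. With the share of reads outside genes in the fit it was positive for 4 of 9, and with the pan-myeloid mean (both described below) for 6 of 9. The difference was called for 0 of 9 members by edgeR and DESeq2, where edgeR called 0.820% of genes. An unadjusted edgeR p under 0.05 was found for 3 of 9 members and 3641 of 25601 genes.

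**Figure D2:**
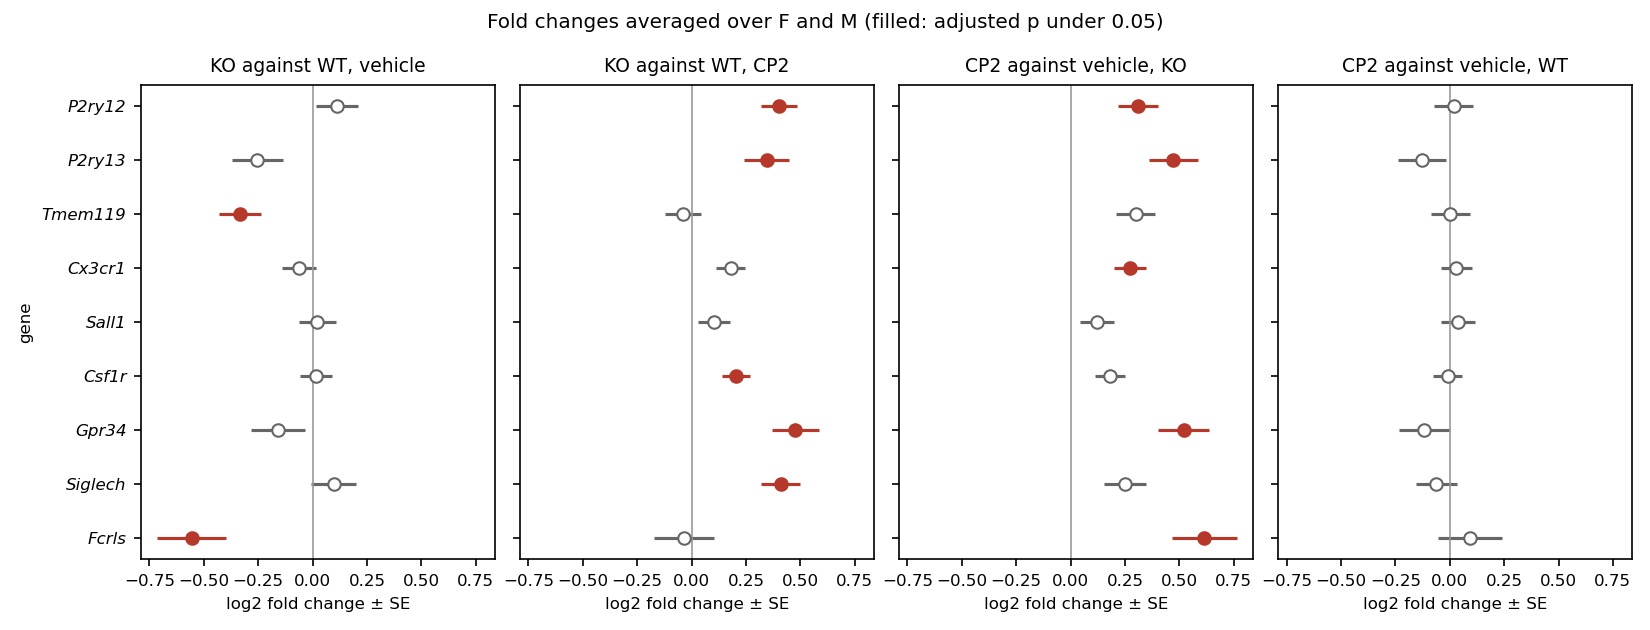
Log2 fold change ± SE of each member (vertical axis) in 4 comparisons averaged over F and M, fitted with edgeR on 36 samples; filled points have an adjusted p under 0.05. Tmem119 and Fcrls are filled on the negative side for KO against WT with vehicle, 5 genes are filled on the positive side for KO against WT with CP2 and 5 for CP2 against vehicle in KO, and the 9 points for CP2 in WT lie between -0.13 and 0.09.

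Within KO mice, CP2-treated brains had more P2ry12, P2ry13, Cx3cr1, Gpr34 and Fcrls RNA than vehicle-treated brains. These were 5 of 9 members, where 2.08% of all genes were called higher, and 9 of 9 fold changes were positive with a median of 0.30. This comparison and the KO against WT comparisons share the KO samples and are not independent of each other. Fcrls, at 9.951 to 21.86 CPM in KO vehicle F as given above, was at 19.19, 22.83, 20.61, 24.71 and 38.16 CPM in KO CP2 F. In KO CP2 M it was at 29.51, 20.77, 32.7, 26.45 and 33.36 CPM, beside 13.32 to 27.01 CPM with vehicle. The ranges overlapped in both letters, and the averaged log2 fold change was 0.61 (SE 0.15, adjusted p = 0.0173 by edgeR).

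Gpr34 was at 15.41, 8.381, 8.266, 11.91 and 11.94 CPM in KO vehicle F and at 12.78, 12.14 and 8.363 CPM in KO vehicle M. The CP2 values given above were higher than all 3 vehicle values in M and overlapped them in F. Its averaged log2 fold change was 0.52 (SE 0.117, adjusted p = 0.00908 by edgeR). P2ry13 was at 9.981, 7.322, 6.075, 8.529 and 9.158 CPM in KO vehicle F and at 10.62, 11.48 and 6.318 CPM in KO vehicle M. Its KO CP2 values overlapped these in both letters, with an averaged log2 fold change of 0.47 (SE 0.112, adjusted p = 0.0121 by edgeR). The log2 fold change was 0.31 for P2ry12 (adjusted p = 0.0425 by edgeR) and 0.27 for Cx3cr1 (adjusted p = 0.0241 by edgeR). Tmem119 missed the threshold at 0.30 (adjusted p = 0.051 by edgeR).

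These calls depended on the fit and on few libraries. None of the 5 was called with the title number as a covariate, where 51 genes in all were called in place of 1002. In KO, each CP2 library had a lower title number than every vehicle library of its letter. Title number and CP2 can therefore hardly be told apart in KO, and what the number stands for is not given in the labels. None of the 5 was called in a fit to the groups compared alone either, where 159 genes were. Without KO vehicle M L322 none of the 5 was called, and with any other library left out the count was at most 7. The P2ry12 call was lost in 12 of the 18 fits that left out 1 library. Cx3cr1 was lost without KO vehicle F L281, KO CP2 M L266, or KO vehicle M L319 or L322, and Fcrls without L319 or L322. Without both L266 and L291, P2ry13, Gpr34 and Fcrls were called.

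In M alone, Tmem119 and Cx3cr1 were called higher with CP2, 2 of 9 members where 2.36% of genes were. Tmem119 was at 24.31, 21.37, 26.54, 23.62 and 26.71 CPM in KO CP2 M, above the 3 vehicle libraries given above, with a log2 fold change of 0.52 (SE 0.138, adjusted p = 0.0199 by edgeR). The Tmem119 call was lost without KO CP2 M L292 or KO vehicle M L319 or L322. Cx3cr1 was at 67.96, 57.99, 58.23, 63.31 and 68.51 CPM in KO CP2 M and at 53.15, 48.75 and 45.78 CPM in KO vehicle M. Its log2 fold change was 0.36 (SE 0.11, adjusted p = 0.0465 by edgeR), and this call was lost in 7 of the 8 fits that left out 1 library. P2ry12, Tmem119, Cx3cr1 and Gpr34 did not overlap between the M groups, where 6.63% of all genes did not overlap and were higher with CP2. In F alone, 0 members were called by edgeR and 2 by DESeq2, where edgeR called 0.0859% of genes. At an unadjusted edgeR p under 0.05 there were 5 of 9 members and 2827 of 25601 genes.

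In WT mice, none of the 9 members was called between CP2 and vehicle. Log2 fold changes ran from -0.13 for P2ry13 (SE 0.11) to 0.09 for Fcrls (SE 0.147). P2ry12, for example, was at 33.55, 27, 37.11, 32.79 and 33.72 CPM in WT vehicle F, a range that overlapped the CP2 values above. The same test called 0 of 25601 genes, 0%, with 1031 genes and 0 members at an unadjusted p under 0.05, and DESeq2 called 0 members.

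The difference between the CP2 effect in KO and that in WT was positive for 9 of 9 members, with a median of 0.30 beside -0.0048 for all genes. None was called by edgeR, where 0.715% of all genes were called. At an unadjusted edgeR p under 0.05 there were 7 of 9 members and 3736 of 25601 genes. Gpr34 had the smallest adjusted p (log2 difference 0.64, SE 0.164, adjusted p = 0.0516 by edgeR), followed by P2ry13 (0.60, SE 0.157, adjusted p = 0.0568 by edgeR). Both were called by DESeq2 (adjusted p = 0.0154 for Gpr34 and 0.0166 for P2ry13). So the CP2 effect passed the test in KO and not in WT, while the difference between the effects did not pass in the edgeR fit. Between M and F, averaged over the 4 genotype and treatment groups, 0 of 9 members were called by edgeR and DESeq2. The edgeR test called 10.3% of genes there. An unadjusted edgeR p under 0.05 was found for 0 of 9 members and 6256 of 25601 genes.

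The members moved with the share of reads that fell outside annotated genes, a measure of the library that also differed between groups. That share averaged 7.33% ± 1.41 (SD, n = 5) in KO CP2 M, 11.5% ± 1.64 (SD, n = 5) in WT CP2 M and 12.1% ± 0.886 (SD, n = 3) in KO vehicle M. In F it averaged 7.54% in KO CP2, 6.02% in WT CP2, 9.24% in KO vehicle and 5.99% in WT vehicle. Over the 36 libraries, each as its difference from its group mean, 9 of 9 members were lower where the share was higher. P2ry12 had the strongest relation (Pearson r = -0.689, adjusted permutation p = 0.0072; Spearman rho = -0.526, adjusted permutation p = 0.0301). Gpr34 followed (r = -0.588, adjusted permutation p = 0.0135; rho = -0.566, adjusted permutation p = 0.0188). Siglech had the weakest relation (r = -0.328, permutation p = 0.0815, adjusted permutation p = 0.0916; rho = -0.246, permutation p = 0.169). Permutations were made within groups, 100000 of them, and adjustment was over the 9 relations, of which 5 had an adjusted Pearson p under 0.05. The relation was computed for the members alone and not for all genes. Whether it is particular to the members was not tested. Without L201 and L283, the 2 libraries whose share lay farthest from that of their own group relative to the median of these differences, r was -0.556 for P2ry12, -0.547 for Gpr34 and -0.21 for Siglech.

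With this share as a covariate in the edgeR fit, the KO against WT comparison with CP2 kept 3 of its 5 calls. They were P2ry12 at 0.28 (adjusted p = 0.00546 by edgeR), Siglech at 0.36 (adjusted p = 0.00665 by edgeR) and Gpr34 at 0.35 (adjusted p = 0.0154 by edgeR). No member was called in that fit for KO against WT with vehicle, where Fcrls was at -0.31 and Tmem119 at -0.17 and where 1.14% of all genes were called in place of 6.67%. None was called for CP2 against vehicle in KO either, where Gpr34 was at 0.22 and Fcrls at 0.30. That fit called 0 of 25601 genes for this comparison, with 1931 genes at an unadjusted p under 0.05, in place of 1002 called, so the loss of calls ran over all genes and was not particular to the members. For KO against WT with CP2 in M alone it called 0 members and 862 genes in place of 2558. For KO against WT with CP2 averaged over F and M, where the 3 members were kept, it called 2952 genes in place of 2972. In CP2-treated M the share ran from 5.18% to 9.07% in KO and from 9.05% to 13.2% in WT, so share and genotype can hardly be told apart there.

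**Figure D3:**
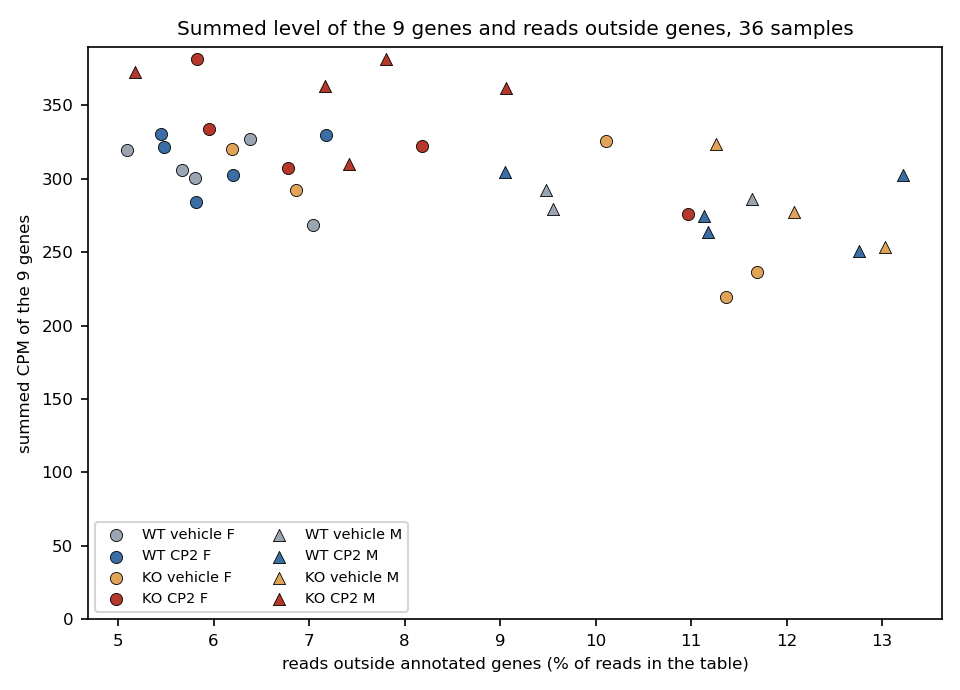
Summed CPM of the 9 genes (vertical axis, from 0) against the percentage of reads outside annotated genes (horizontal axis), 1 point per sample, with colours for genotype and treatment, circles for F and triangles for M. Summed CPM runs from 219.5 to 325.8 in KO vehicle F and from 309.8 to 381.6 in KO CP2 M, and libraries with a larger share of reads outside genes tend to lie lower.

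Genes expressed by microglia and other myeloid cells were used as a reference level for the members. Whether this reference follows the amount of microglial RNA in a sample or also the state of the cells was not tested. Of 24 such pan-myeloid genes, 6 were called higher in KO than in WT with CP2 and 0 lower. Among them were the lysosomal protease Ctss at 0.64 (adjusted p = 3.16e-06 by edgeR), Ly86 at 0.74 and the integrin subunit Itgam at 0.46. With vehicle, 0 of 24 were called by edgeR, with 3 at an unadjusted p under 0.05. In vehicle-treated F alone, where Fcrls was called lower, the median of the 24 was -0.15 with 5 of 24 positive, and the complement subunit gene C1qb was called lower at -0.48 (adjusted p = 0.0444 by edgeR). For CP2 against vehicle in KO, 5 of 24 were called higher, including Ctss at 0.40, Ly86 at 0.53 and Itgam at 0.42.

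Relative to the mean log2 CPM of these 24 genes, Tmem119 and Fcrls averaged lower in KO than in WT in each of the 4 pairs of groups. In F, KO and WT libraries overlapped for both genes with either treatment. The smallest of these differences, Tmem119 with vehicle in F, lay within the KO spread (SD 0.23 in KO and 0.084 in WT). For Fcrls the log2 difference was -0.70 with vehicle and -0.25 with CP2 in F, and -0.48 with vehicle and -0.41 with CP2 in M. For Tmem119 it was -0.16 and -0.30 in F, and -0.48 and -0.32 in M. P2ry12, in contrast, stood at 0.18, 0.27, 0.06 and -0.03 in the same order, and Csf1r at 0.05, -0.02, -0.01 and -0.12. The values in M depended on the reference: against the mean of 24 other homeostatic genes, Fcrls was at -0.32 with vehicle and -0.25 with CP2, Tmem119 at -0.32 and -0.16, P2ry12 at 0.21 and 0.13 and Csf1r at 0.15 and 0.04. Fcrls and Tmem119 thus stayed lower in KO in the 4 pairs under either reference, by -0.74 and -0.25 for Fcrls and by -0.20 and -0.30 for Tmem119 in F, while P2ry12 with CP2 and Csf1r with either treatment changed sign in M. In an edgeR fit with the pan-myeloid mean as a covariate, added after the data were seen, Tmem119 and Fcrls were the members called, both lower, in either KO against WT comparison averaged over F and M. Over all genes that fit called 1788 with vehicle, 759 of them higher, and 1512 with CP2, 641 of them higher. Fcrls was at -0.56 with vehicle (adjusted p = 0.000184 by edgeR) and at -0.51 with CP2 (adjusted p = 0.00132 by edgeR), and Tmem119 at -0.32 (adjusted p = 0.00776 by edgeR) and -0.28 (adjusted p = 0.0320 by edgeR). The covariate is itself built from genes that changed, so this fit describes the members relative to those genes.

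**Figure D4:**
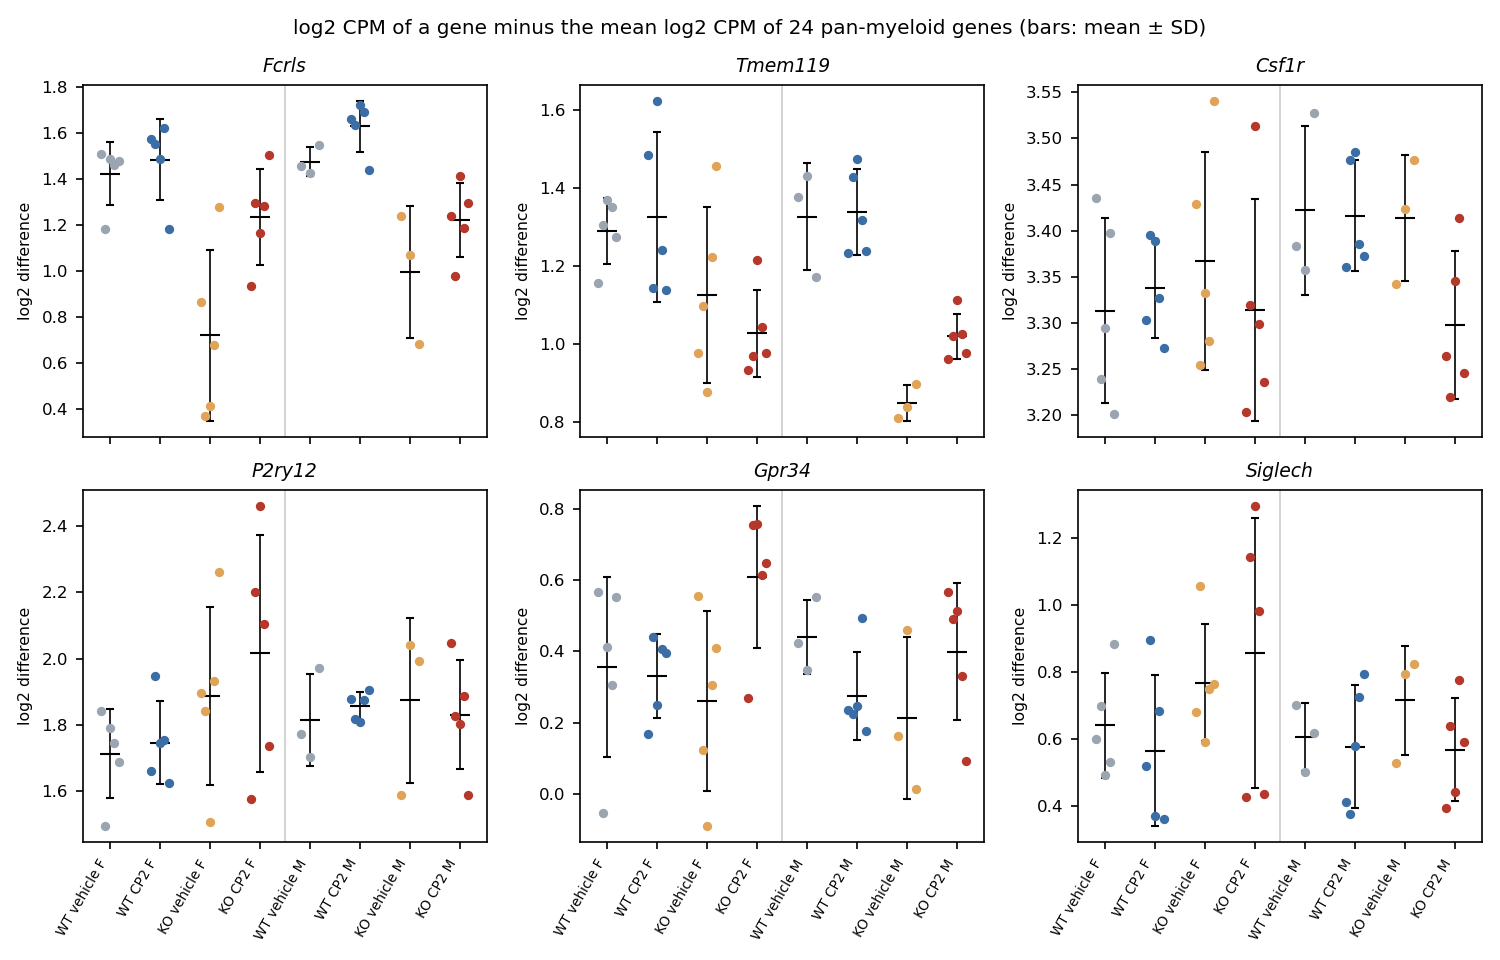
Log2 CPM of 6 members minus the mean log2 CPM of 24 pan-myeloid genes (vertical axes, log2 units, not from 0) in every sample of the 8 groups; bars are mean ± SD, with n = 5 or, for WT vehicle M and KO vehicle M, n = 3. Fcrls and Tmem119 average lower in KO than in the matching WT group in all 4 pairs, while Csf1r group means lie between 3.30 and 3.42.

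Of 24 other genes of homeostatic microglia, 5 were called higher and 1 lower in KO than in WT with CP2. The sialic acid-binding receptor Cd33 was at 0.46 (adjusted p = 0.000955 by edgeR) and Ecscr at 0.43 (adjusted p = 0.0206 by edgeR). The phagocytic receptor Mertk was lower, at -0.27. None of the 24 was called with vehicle by edgeR (6 at an unadjusted p under 0.05), while in vehicle-treated F alone Selplg at -0.41 and the crystallin gene Crybb1 at -0.59 were called lower. For CP2 against vehicle in KO, 2 of the 24 were called higher, among them the selectin ligand Selplg at 0.30.

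Genes of the disease-associated state were higher in KO with CP2 for 11 of 21, and 0 were lower, where 5.54% of all genes were called higher. Which cells of the brain the RNA of these genes came from was not tested. Clec7a, a lectin receptor, was at 2.17 (SE 0.29, adjusted p = 3.44e-06 by edgeR), the lipid receptor Trem2 at 0.59 and the chemokine Ccl6 at 0.86. Clec7a averaged 1.56 ± 0.285 CPM in KO CP2 F and 0.377 ± 0.0448 CPM in WT CP2 F (SD, n = 5 each). With vehicle, 2 of 21 were called higher, Clec7a at 1.07 and Gpnmb at 1.01, where 736 of 25601 genes were called higher. For CP2 against vehicle in KO, 3 were called higher, where 2.08% of all genes were. They were the cathepsins Ctsz at 0.39 and Ctsd at 0.20 and the surface antigen Cd52 at 0.79. P2ry12, Gpr34 and Siglech, which are known to fall in that state, were higher in the same KO against WT comparison with CP2. Of the other members, P2ry13 and Csf1r were also higher there. Cx3cr1 at 0.18, Sall1 at 0.10, Tmem119 at -0.04 and Fcrls at -0.04 were not called. Tmem119 and Fcrls were lower relative to the pan-myeloid mean, as given above, so the members did not move as 1 set.

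Among the ligands of the members' receptors, Cx3cl1 was lower in KO with either treatment. It averaged 644 ± 73.4 CPM in WT vehicle F and 456.7 ± 59 CPM in KO vehicle F (SD, n = 5 each), and 578 ± 29 CPM in WT vehicle M and 510.8 ± 40.4 CPM in KO vehicle M (SD, n = 3 each). With CP2 it averaged 702.4 ± 122 and 521.9 ± 104 CPM in WT and KO F, and 629.6 ± 40.7 and 479.3 ± 68.8 CPM in WT and KO M (SD, n = 5 each). The log2 fold change was -0.34 with vehicle (adjusted p = 0.027 by edgeR) and -0.41 with CP2 (adjusted p = 0.000883 by edgeR). Il34 and Csf1, the ligands of Csf1r, were not called, with Il34 at -0.21 and Csf1 at 0.16 with CP2.

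Of 9 genes of TGF-beta signalling, the receptor Tgfbr2 was called higher in KO with CP2, at 0.34 (adjusted p = 0.000361 by edgeR), and 0 of 9 with vehicle (0 at an unadjusted p under 0.05). The ligand Tgfb1 was at 0.45 (adjusted p = 0.0739 by edgeR) and the receptor Tgfbr1 at 0.15 (adjusted p = 0.0539 by edgeR). Tgfbr1 was called higher with CP2 against vehicle in KO, at 0.26 (adjusted p = 0.0066 by edgeR). Of 10 transcription factors of microglia, Ikzf1 at 0.50, Spi1 at 0.47, Bhlhe41 at 0.23 and Mef2a at 0.22 were called higher in KO with CP2. Mef2a at 0.22 and Bhlhe41 at 0.22 were called higher with vehicle, where Spi1 was not called (adjusted p = 0.992 by edgeR). Across libraries Mef2a was at 129.8 to 208 CPM and Bhlhe41 at 33.39 to 60.81 CPM. Spi1 was at 3.244 to 8.044 CPM and Ikzf1 at 3.54 to 8.236 CPM. Which cells the RNA of Mef2a and Bhlhe41 came from was not tested.

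In a list of 7 genes linked to extracellular nucleotide signalling, the potassium channel Kcnk13 was lower in KO with vehicle, at -0.53 (adjusted p = 0.00502 by edgeR). It averaged 12.1 ± 1.56 CPM in WT vehicle F and 9.44 ± 1.82 CPM in KO vehicle F (SD, n = 5 each). With CP2 it was at -0.17 (adjusted p = 0.305 by edgeR), and Nt5e, which makes adenosine from AMP, was higher in KO at 0.41 (adjusted p = 0.0296 by edgeR). The nucleotide receptors of this list, P2rx4, P2rx7 and P2ry6, were not called in either comparison.

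Markers of other myeloid cells were low. The summed level of 10 genes of border macrophages was 22.0 to 56.1 CPM across the 36 libraries, 38.3 to 56.1 CPM in KO CP2 M and 32.4 to 43.7 CPM in WT CP2 M, and that of 10 monocyte and neutrophil genes 0.977 to 5.82 CPM. No gene of either list was at 0 in every library, and edgeR called none of either list in the 4 comparisons averaged over F and M. Before adjustment, 2 border macrophage genes had p under 0.05 in KO against WT with vehicle and 1 monocyte or neutrophil gene with CP2. Of the 8 oligodendrocyte genes, 5 were higher with CP2 in KO, among them Opalin at 0.55, Mbp at 0.39 and Mobp at 0.41, and 2 were higher in KO with CP2. The 8 astrocyte genes had 8 positive fold changes for CP2 against vehicle in KO (median 0.15, 0 called), and 1 of 8 was called higher in KO with CP2. With vehicle, 4 of 5 red cell genes were called lower in KO, with a summed level of 114.6 to 647.5 CPM in WT vehicle M and 38.6 to 87.4 CPM in KO vehicle M. Of 8 hippocampal genes, 2 were called lower in KO vehicle F than in WT vehicle F, and 8 of 8 had positive fold changes for CP2 in KO F (median 0.53, 1 called higher). Among 8 neuronal genes, 1 was called lower in KO with vehicle, and 1 was called higher and 1 lower with CP2. The lists of endothelial and mural cells, choroid plexus and striatum had 0 genes called by edgeR in the 4 comparisons averaged over F and M, with unadjusted p under 0.05 for 1 endothelial or mural gene with vehicle and 3 with CP2 in KO against WT. Summed choroid plexus levels ran from 192.9 to 2755 CPM within KO CP2 M and from 671.6 to 1059 CPM within WT vehicle M. Summed striatal levels ran from 190.2 to 888.9 CPM within WT CP2 F and from 243.1 to 408.8 CPM within WT vehicle F. The libraries thus differed in these 2 lists within groups, and the absence of calls does not show equal content. Of these lists the hippocampal one was entered in a fit, and the part of the others in the results for the 9 members was not tested.

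Within groups, the 9 members tended to be high or low in the same libraries. Over the 36 pairs of members, Pearson's r of the differences from group means had a median of 0.607 (Spearman 0.533, n = 36 libraries), from 0.122 for Sall1 and Siglech to 0.885 for Csf1r and Fcrls. These values share the depth and RNA of each library and are given as a description. Among the 10 genes outside the list whose pattern was most like the mean of the members were Ptn (r = 0.842), Slc2a5 (0.802), Hapln1 (0.775), Tnfrsf19 (0.770), Lix1 (0.766), Trak2 (0.763), Cxxc5 (0.763), Cyb5r4 (0.761) and Ctss (0.759), over the same 36 libraries.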

How the data were processed

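PolyA RNA of 36 mouse brains was sequenced. The values are raw read counts per gene, deposited by the authors as 1 table; per the submitters' processing notes STAR, HTSeq and the GRCm39 build were used, and versions, annotation release, strand setting and filters are not given in the sources used here. The 5 summary rows of the table that name no gene were kept out of library sizes. The row of reads that matched no annotated gene gave the share outside annotated genes, 5.09% to 13.2%. This share is a percentage of all reads in the table, summary rows included. Symbols, found for 52073 of 56980 identifiers, and exon lengths came from GENCODE annotation of GRCm38.

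Counts were filtered (filterByExpr), scaled by TMM and fitted with edgeR 4.0.16 in R 4.3.3 (robust quasi-likelihood, 36 samples, 1 term per group, no covariate), with 20 contrasts and Benjamini-Hochberg adjustment over 25601 genes in each. An SE is |log2 fold change| / sqrt(F). Levels are CPM on TMM library sizes, and log2 CPM used a prior count of 2. DESeq2 1.42.0, other filters, scaling, covariates and leaving out each library were alternatives. The pipeline was tested on simulated data. Replicates differed by more than sampling noise in every group.

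The 18 gene lists, of which the members are 1, were chosen with earlier results of these data known. Named were the 9 members, any gene of the ligand, TGF-beta, transcription factor and nucleotide lists, up to 3 genes each way of every other list with the smallest adjusted p in a contrast, the 10 most alike genes with a mean of at least 1 CPM, and Ndufs4. Itgax was named as background. Some genes that this rule names are not reported here. Lists of other cell types and brain regions are summarised by counts, and the hippocampus list also served as a covariate.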

Additional observations from a re-analysis of the deposited data

Results flagged for a closer look

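Siglech in the WT vehicle F library L296 was at 19.3 CPM, beside 15.5 CPM in the next highest of the 5 libraries of its group, a gap that takes up most of the group's range. It was 1 of 54 such checks of a member in a group of 5, and chance alone flags about 5% of them.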

How the results depend on the processing

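No paired analysis was possible because no title number is shared between groups.

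Counts of members called by edgeR changed by more than 1.5 times as follows, always out of 9. For KO against WT with vehicle, 2 became 1 without the low-count filter and 0 with the percentage of reads outside genes (the share) as covariate or with a fit to the groups compared alone; in F, 1 became 0 with that share, and in M, 0 became 1 with the pan-myeloid mean as a covariate. For KO against WT with CP2, 5 became 3 with the share and 2 with the pan-myeloid mean; in F, 0 became 1 with the share, and in M, 6 became 0 with the share and 1 with the pan-myeloid mean. For CP2 against vehicle in KO, 5 became 0 with the share, the title number or the pan-myeloid mean as a covariate and 0 with a fit to the groups compared alone, and 3 without L266 and L291, while the genes called in all went from 1002 to 0, 51, 0, 159 and 526 in these fits; in F, 0 became 2 with DESeq2. In M, 2 became 1 with DESeq2 size factors, the hippocampus list as a covariate or without L266 and L291, and 0 with the share, the title number or the pan-myeloid mean. For the difference between the CP2 effects, 0 became 2 with DESeq2, without the low-count filter, with a stricter filter of 1 CPM in 5 samples and with the hippocampus list; in M, 0 became 2 with a fit to the groups compared alone. For KO against WT the genes called in all went from 1708 to 1284 without the filter, to 1.14% of genes in place of 6.67% with the share and to 1302 with the groups alone, for vehicle, and from 2972 to 2952 with the share and 1512 with the pan-myeloid mean, for CP2. The cause of these changes was not tested, and in KO the title number and CP2 can hardly be told apart.

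Leaving out 1 library at a time, the counts ran from 0 to 2 for KO against WT with vehicle, 3 to 6 with CP2, 0 to 7 for CP2 in KO and 0 to 2 for the difference between the CP2 effects. They ran from 0 to 1 for vehicle in F, 3 to 6 for KO against WT with CP2 in M, 0 to 1 for CP2 in KO F, 0 to 2 for CP2 in KO M, 0 to 1 for the difference in M and 0 to 1 for F minus M with CP2. The other 10 comparisons gave 0 in each such fit.

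With the pan-myeloid covariate the sign of Csf1r for KO against WT with CP2 turned, to -0.0165 averaged over F and M and to -0.0197 in M; no other called fold change of a member turned under any alternative. The alternatives without L266 and L291 and with the pan-myeloid mean were chosen after seeing the data.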
